A study of Mus musculus with 6 samples.

Results

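Of 36 antiviral interferon-stimulated genes measured in liver at postnatal day 14, 14 fell in Mir137−/− mice relative to Mir137+/+ mice and none rose. The direction follows the genotype labels, and it is opposite to the one the study gives for the interferon-alpha response in these livers. The set held 39 genes named by symbol, each an RNA sensor, a factor that carries or tunes the interferon signal, an effector that acts on viruses or infected cells, or a secreted product. Where several probe sets were annotated to a symbol alone, the brightest by its mean of all 6 arrays stood for the gene, whatever the genotype. Of the 39 genes, 36 had such a probe set, out of 18193 genes on the array chosen in the same way. Isg15 shared its probe set with a second symbol, Oas1g and Ifi44 had none of their own in the annotation used, and all 3 were not analysed here. The remaining 22 measured genes were not called, where a call needed a Benjamini-Hochberg adjusted p below 0.05 over all 18193 genes in limma and a change above 1.5-fold. The share that fell was 38.9%, beside 3.34% of all genes, and 2.34% of all genes rose.

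Type I interferons bind a receptor on the cell surface, and kinases on that receptor activate transcription factors, among them STAT2, which joins IRF9 and enters the nucleus. The resulting complex binds an element called the ISRE in the promoters of interferon-stimulated genes. Another element, the GAS, is found in genes that respond to interferon-gamma. Some of the induced proteins sense viral RNA or raise interferon production again, so that parts of the pathway are both its machinery and its output. In liver, hepatocytes, Kupffer cells and other immune cells can all express these genes.

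The study deleted the exons that hold miR-137, a microRNA enriched in brain, from the whole body. The deletion was made in embryonic stem cells of a strain other than C57BL/6, chimeras were crossed to C57BL/6, and heterozygous offspring were intercrossed to give both genotypes. Each array held RNA from the liver of 1 untreated mouse at day 14, with 3 Mir137−/− and 3 Mir137+/+ mice, and the tissue was whole liver, so cell types were not separated. Mir137 itself was not analysed here, so it could not serve to check the genotype labels, from which the sign of every difference is taken. Other liver genes that the study measured by PCR were not compared here. Which side of this conflict in direction is right was therefore not settled.

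Values are log2 summaries of probe brightness, and every difference is Mir137−/− minus Mir137+/+ on that log2 scale, with the SE of the limma fit and 3 mice per genotype. The median over all probe sets was 4.88 to 4.91 on the 6 arrays. The study's methods name male mice, yet Mir137+/+ replicates 2 and 3 read 10.91 and 10.81 for Xist, the RNA of the inactive X chromosome, against 3.66 to 4.24 elsewhere. Conversely, Eif2s3y, a gene of the Y chromosome, read 2.06 and 2.51 on these 2 arrays and 8.46 to 8.62 on the rest. Skeletal muscle markers summed to a log2 level of 12.7 on Mir137−/− replicate 1 and 7.82 to 8.13 elsewhere. Exocrine pancreas markers summed to 12.5 on Mir137−/− replicate 2, 11.3 on Mir137+/+ replicate 2 and 9.55 to 9.62 elsewhere. A measure of RNA quality, the 3′ minus 5′ probe sets of Actb, was 0.60 to 0.83 in Mir137−/− livers and 0.69 to 0.82 in Mir137+/+ livers. Calls were therefore also made without the arrays that stood apart, for the members and the other pathway genes.

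Promoters are shown for the member of each role with the smallest p that had one in the table (Ifih1, Ifi35, Ifit1 and Cxcl10) and for Trim25, the member with the highest mean level among those not called. The sequences are from RefSeq on GRCm38.p6, run 5′ to 3′ on the strand of the gene, and span 250 bases before to 50 bases after its start. Capitals mark an ISRE core, which is GAAANNGAAA on either strand, or its wide form, GAAANNNGAAA.
Ifih1 (chr2:62646206-62646505, minus strand): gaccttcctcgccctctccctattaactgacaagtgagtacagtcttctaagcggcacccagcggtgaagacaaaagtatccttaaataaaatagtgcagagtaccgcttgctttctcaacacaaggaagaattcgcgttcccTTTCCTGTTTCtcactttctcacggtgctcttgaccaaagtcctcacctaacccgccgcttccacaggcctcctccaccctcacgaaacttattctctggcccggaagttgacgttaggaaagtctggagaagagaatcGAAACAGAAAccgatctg
Ifit1 (chr19:34640639-34640938, plus strand): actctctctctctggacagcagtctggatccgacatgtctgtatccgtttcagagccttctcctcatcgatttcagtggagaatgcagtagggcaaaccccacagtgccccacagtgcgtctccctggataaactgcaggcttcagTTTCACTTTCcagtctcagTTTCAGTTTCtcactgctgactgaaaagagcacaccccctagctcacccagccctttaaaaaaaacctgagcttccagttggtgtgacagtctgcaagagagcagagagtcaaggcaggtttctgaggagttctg
Cxcl10 (chr5:92348840-92349139, minus strand): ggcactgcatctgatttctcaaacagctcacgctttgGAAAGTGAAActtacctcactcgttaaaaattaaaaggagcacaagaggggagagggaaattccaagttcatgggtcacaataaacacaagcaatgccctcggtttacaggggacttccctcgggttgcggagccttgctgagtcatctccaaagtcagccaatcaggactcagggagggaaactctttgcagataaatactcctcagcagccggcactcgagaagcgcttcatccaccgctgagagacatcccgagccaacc
Ifi35 (chr11:101448162-101448461, plus strand): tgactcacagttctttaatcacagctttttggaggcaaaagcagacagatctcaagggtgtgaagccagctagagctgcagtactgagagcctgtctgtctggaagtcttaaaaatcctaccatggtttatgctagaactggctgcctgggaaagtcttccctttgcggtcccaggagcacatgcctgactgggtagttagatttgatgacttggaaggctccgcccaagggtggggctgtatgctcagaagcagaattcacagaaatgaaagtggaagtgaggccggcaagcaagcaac
Trim25 (chr11:88999153-88999452, plus strand): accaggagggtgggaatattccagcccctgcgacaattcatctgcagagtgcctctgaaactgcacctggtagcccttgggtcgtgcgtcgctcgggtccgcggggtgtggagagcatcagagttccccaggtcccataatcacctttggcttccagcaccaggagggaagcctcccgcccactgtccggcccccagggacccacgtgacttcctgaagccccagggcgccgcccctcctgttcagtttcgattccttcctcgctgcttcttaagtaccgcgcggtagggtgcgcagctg
Ifit1 held a pair of ISRE cores, which began 104 and 85 bases before the gene's start. Cxcl10 held a core that began 213 bases before the start, and Ifih1 held a wide form 107 bases before it and a core 33 bases after it. Neither Ifi35 nor Trim25 held these letters in the window.

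A promoter was found for 26 of the 36 members. An ISRE core was present in 12 of the 26 (46.2%), and in 3.99% of 27025 genes with a promoter in the table. Among members that fell, 5 of 10 held a core, and among members not called 7 of 16 did. The wide form was present in 5 of 26 members (19.2%) and in 3.17% of all genes. It stood in 4 of the 10 members that fell, namely Ifih1, Ifit3, Rsad2 and Samd9l, and in 1 of the 16 that were not called, Lgals3bp. A GAS core, TTCNNNGAA on either strand, was present in 7 of 26 members (26.9%) and 9.55% of all genes, in none of the 10 that fell and in 7 of the 16 that were not called. The core and the wide form can share bases, and a match is a description of the letters, not of a bound site.

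Across the 36 members, the median difference was −0.45, while the median over all genes was 0.003. A negative difference was measured for 32 members, against 49.3% of all genes. In 24 members, all 3 Mir137−/− livers lay below all 3 Mir137+/+ livers, a separation that 17.4% of all genes had. Without the fold threshold, 19 members passed the adjusted p in the lower direction, and 6.9% of all genes did so. The median deviation of the members from their Mir137+/+ mean was −0.47, −0.38 and −0.47 in Mir137−/− replicates 1, 2 and 3. In Mir137+/+ replicates 1, 2 and 3 it was 0.02, 0.02 and −0.005, so that no Mir137−/− liver reached the level of any Mir137+/+ liver. Calls in either direction were made for 5.67% of all genes.

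**Figure D1:**
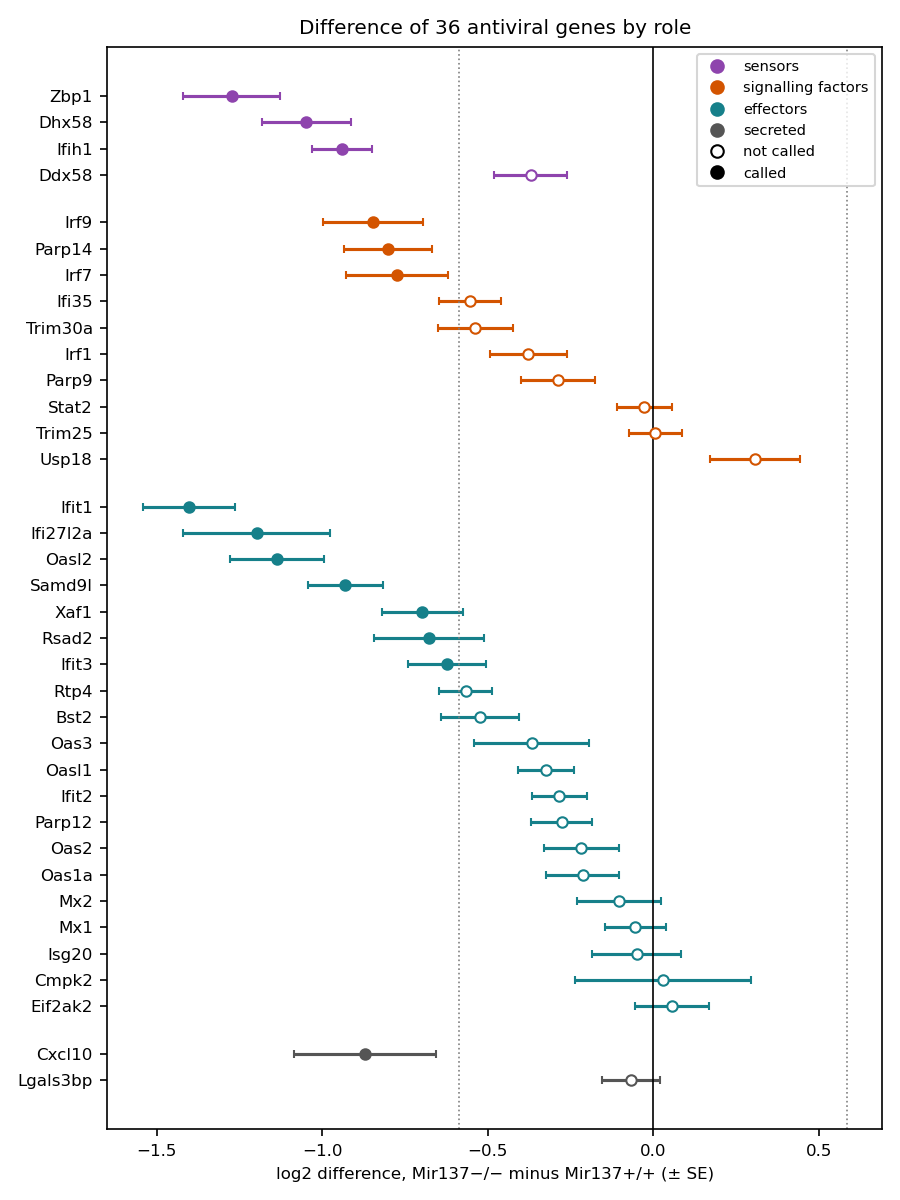
The log2 difference, Mir137−/− minus Mir137+/+, is on the horizontal axis for each of 36 antiviral genes, with its SE as the bar and filled points for genes that were called. Dotted lines mark a 1.5-fold change. The 14 called genes lie left of the lower line, from −0.62 for Ifit3 to −1.40 for Ifit1, and Usp18 lies farthest to the right at 0.31.

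Of the 4 RNA and DNA sensors, 3 fell and the median difference was −0.99. Ifih1, a cytoplasmic helicase that binds long double-stranded RNA, read 7.24, 7.25 and 7.10 in Mir137−/− replicates 1, 2 and 3 and 8.22, 8.13 and 8.06 in Mir137+/+ replicates 1, 2 and 3. The genotypes did not overlap, and the spread within each was narrow. Its difference was −0.94 ± 0.09 (SE), a 1.92-fold decrease (adjusted p = 0.00108). Dhx58, a helicase without a signalling domain that modulates the other sensors, read 4.54, 4.36 and 4.40 in Mir137−/− livers and 5.19, 5.59 and 5.66 in Mir137+/+ livers. All Mir137−/− values were lower, and Mir137+/+ replicate 1 was the lowest of its group. The difference was −1.05 ± 0.13 (adjusted p = 0.00303). Zbp1, which senses Z-form nucleic acids and can start cell death, read 5.52, 5.20 and 5.0 in Mir137−/− livers and 6.40, 6.69 and 6.45 in Mir137+/+ livers. Its difference of −1.27 ± 0.15 (adjusted p = 0.00191) was the largest of the 4 sensors, and its groups lay apart.

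Ddx58, the helicase that recognizes RNA ends with a triphosphate, was the sensor not called. It read 6.59, 6.77 and 6.71 in Mir137−/− livers and 7.08, 6.88 and 7.22 in Mir137+/+ livers. The groups were separate but close, and the difference of −0.37 ± 0.11 had an adjusted p of 0.069. The sensors' other probe sets had smaller differences than the ones used. A second probe set of Zbp1 gave −0.91 (adjusted p = 0.00625 over all probe sets), and 2.58% of all 45037 probe sets fell. For Dhx58, both other probe sets gave −0.30 and were not called, and the mean of its 3 probe sets gave −0.55, which was under 1.5-fold. For Ddx58 they gave −0.33 and 0.04.

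Among 10 measured signalling factors, 3 fell, 7 were not called, and the median difference was −0.46. Irf9, a DNA-binding partner of STAT2, read 6.45, 6.25 and 6.23 in Mir137−/− livers and 7.39, 6.83 and 7.25 in Mir137+/+ livers. The Mir137−/− values clustered and the Mir137+/+ values spread more widely, without overlap. The difference was −0.85 ± 0.15 (adjusted p = 0.0116). Irf7, which drives interferon-alpha genes after RNA sensing, read 6.46, 6.11 and 5.89 in Mir137−/− livers and 6.95, 7.07 and 6.76 in Mir137+/+ livers. Its groups were separate, with Mir137−/− replicate 1 nearest to the Mir137+/+ livers. The difference was −0.77 ± 0.15 (adjusted p = 0.0183), and its call was lost when Mir137−/− replicate 2 (adjusted p = 0.0557), Mir137+/+ replicate 1 (0.0621) or Mir137+/+ replicate 2 (0.0703) was left out.

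Parp14, an ADP-ribosyltransferase that modulates STAT signalling, read 6.58, 6.42 and 6.10 in Mir137−/− livers and 7.07, 7.27 and 7.16 in Mir137+/+ livers. No Mir137−/− liver reached the Mir137+/+ range. The difference was −0.80 ± 0.13 (adjusted p = 0.00873), a dimmer probe set gave −0.29, and the mean of both gave −0.55, under 1.5-fold. Parp9, which lies near it on the same chromosome with 1 protein-coding gene between them in GRCm38.p6, had a difference of −0.29 and was not called (adjusted p = 0.147).

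Ifi35 and Trim30a had the smallest p among signalling factors that were not called. Ifi35, a leucine zipper protein that modulates innate signalling, read 8.80, 8.94 and 8.68 in Mir137−/− livers and 9.36, 9.38 and 9.34 in Mir137+/+ livers. The genotypes lay apart, and the difference of −0.55 ± 0.09 (adjusted p = 0.00925) missed only the fold threshold. Trim30a, a ubiquitin ligase of the tripartite motif family, read 6.50, 6.71 and 6.84 in Mir137−/− livers and 7.19, 7.34 and 7.13 in Mir137+/+ livers. Its difference was −0.54 ± 0.11 (adjusted p = 0.0219), again under 1.5-fold, and its second probe set gave −0.67 and was called. Without Mir137−/− replicate 2, Ifi35 passed both thresholds with −0.62, and Trim30a did so without Mir137−/− replicate 3, with −0.62.

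Stat2, which joins IRF9 in the complex at the ISRE, read 6.44, 6.41 and 6.36 in Mir137−/− livers and 6.52, 6.38 and 6.39 in Mir137+/+ livers. The genotypes overlapped, and the difference was −0.03 ± 0.08 (adjusted p = 0.879). Usp18, the protease that removes ISG15 from proteins and dampens the receptor, was the member with the highest difference. It read 8.62, 8.97 and 8.57 in Mir137−/− livers and 8.58, 8.25 and 8.41 in Mir137+/+ livers. The genotypes overlapped, with a difference of 0.31 ± 0.14 (adjusted p = 0.197). Trim25, the ubiquitin ligase that activates DDX58, had a difference of 0.01, and Irf1, a transcription factor induced mainly by interferon-gamma, had −0.38 (adjusted p = 0.0786).

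Of the 20 measured effectors, 7 fell and 13 were not called, with a median difference of −0.345. Ifit1, which binds viral RNA that lacks host cap methylation, had the largest difference of all 36 members. It read 4.17, 4.40 and 4.20 in Mir137−/− livers and 5.77, 5.84 and 5.37 in Mir137+/+ livers. The gap between genotypes was wider than the spread within either, and the difference was −1.40 ± 0.14, a 2.65-fold decrease (adjusted p = 0.00125). Ifit3, its binding partner, read 6.14, 6.30 and 5.99 in Mir137−/− livers and 6.92, 6.77 and 6.61 in Mir137+/+ livers. The groups were separate by a smaller margin, with a difference of −0.62 ± 0.12 (adjusted p = 0.0148). Without Mir137−/− replicate 3 or without Mir137+/+ replicate 1, Ifit3 was at −0.55, under 1.5-fold. Without Mir137+/+ replicate 2 its adjusted p was 0.0554. Ifit2, whose gene is next to Ifit3, had a difference of −0.28 with separate groups and was not called (adjusted p = 0.0652).

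Oasl2, an oligoadenylate synthetase-like protein, read 5.29, 5.39 and 5.01 in Mir137−/− livers and 6.12, 6.46 and 6.52 in Mir137+/+ livers. Its groups did not overlap and its difference was −1.14 ± 0.14 (adjusted p = 0.0027). The neighbouring Oasl1 had −0.32 with separate groups (adjusted p = 0.0451), under 1.5-fold. The enzymes that make oligoadenylates to activate RNase L were not called. Their differences were −0.21 for Oas1a, −0.22 for Oas2 and −0.37 for Oas3, and in each of them the genotypes overlapped.

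Samd9l, a restriction factor against poxviruses that also limits growth, read 6.85, 6.66 and 6.78 in Mir137−/− livers and 7.84, 7.49 and 7.75 in Mir137+/+ livers. The genotypes lay well apart, with a difference of −0.93 ± 0.11 (adjusted p = 0.00243). Xaf1, a partner of the apoptosis inhibitor XIAP, read 6.51, 6.27 and 6.30 in Mir137−/− livers and 7.23, 6.85 and 7.09 in Mir137+/+ livers. All Mir137−/− values were lower, and the difference was −0.70 ± 0.12 (adjusted p = 0.0109). A much dimmer probe set of Xaf1 gave −0.21, and the mean of both gave −0.45, under 1.5-fold. Ifi27l2a, a small membrane protein strongly induced by type I interferon, read 6.36, 6.42 and 6.33 in Mir137−/− livers and 7.0, 7.96 and 7.74 in Mir137+/+ livers. The Mir137−/− livers agreed closely, and Mir137+/+ replicate 1 lay far below the other Mir137+/+ livers. The difference was −1.20 ± 0.22 (adjusted p = 0.0135), and the adjusted p was 0.0555 without Mir137+/+ replicate 3.

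Rsad2, also called viperin, makes a chain-terminating nucleotide analogue. It read 6.76, 7.20 and 6.72 in Mir137−/− livers and 7.48, 7.84 and 7.39 in Mir137+/+ livers. Mir137−/− replicate 2 came close to the lowest Mir137+/+ liver, and the difference was −0.68 ± 0.17 (adjusted p = 0.0369). The call was lost without any 1 array except Mir137−/− replicate 2, with adjusted p between 0.0635 and 0.112. The 3 probe sets of Rsad2 gave −0.68, −0.73 and −0.51. Cmpk2, the mitochondrial nucleotide kinase whose gene neighbours Rsad2 with no protein-coding gene between them, read 6.13, 5.67 and 5.23 in Mir137−/− livers and 6.06, 5.67 and 5.21 in Mir137+/+ livers. The genotypes overlapped fully, with a difference of 0.03 ± 0.27 (adjusted p = 0.959), and each Mir137−/− value was close to that of the Mir137+/+ array with the same replicate number. A dimmer probe set of Cmpk2 gave −0.88 (adjusted p = 0.00268 over all probe sets) and fell, so the probe sets of this gene disagreed.

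Rtp4 and Bst2 had the smallest p among effectors that were not called. Rtp4, a chaperone protein, read 7.28, 7.35 and 7.25 in Mir137−/− livers and 7.83, 7.86 and 7.89 in Mir137+/+ livers. The genotypes were clearly separate, and the difference of −0.57 ± 0.08 (adjusted p = 0.00429) lay just under the fold threshold. Bst2, or tetherin, which holds budding virions at the cell surface, read 8.41, 8.55 and 8.14 in Mir137−/− livers and 8.86, 8.84 and 8.97 in Mir137+/+ livers. Its difference was −0.52 ± 0.12 (adjusted p = 0.0281). Without Mir137−/− replicate 2 both were called, Rtp4 at −0.60 and Bst2 at −0.62. The remaining effectors lay between −0.28 for Parp12 and 0.06 for Eif2ak2, the kinase that stops translation on double-stranded RNA. Among them, the dynamin-like GTPases Mx1 and Mx2 had −0.05 and −0.10, and the exonuclease Isg20 had −0.05.

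Cxcl10, the chemokine that draws T and NK cells, was 1 of 2 secreted members and fell. It read 4.56, 5.16 and 4.55 in Mir137−/− livers and 5.77, 5.87 and 5.24 in Mir137+/+ livers. Mir137−/− replicate 2 lay just under Mir137+/+ replicate 3, and the difference was −0.87 ± 0.21 (adjusted p = 0.0377). The call was lost without Mir137−/− replicate 1 (adjusted p = 0.105), Mir137−/− replicate 3 (0.0946), Mir137+/+ replicate 1 (0.115) or Mir137+/+ replicate 2 (0.127). Lgals3bp, a secreted glycoprotein, read 9.27, 9.16 and 9.27 in Mir137−/− livers and 9.39, 9.27 and 9.24 in Mir137+/+ livers. Its groups overlapped and its difference was −0.07 ± 0.09 (adjusted p = 0.683).

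**Figure D2:**
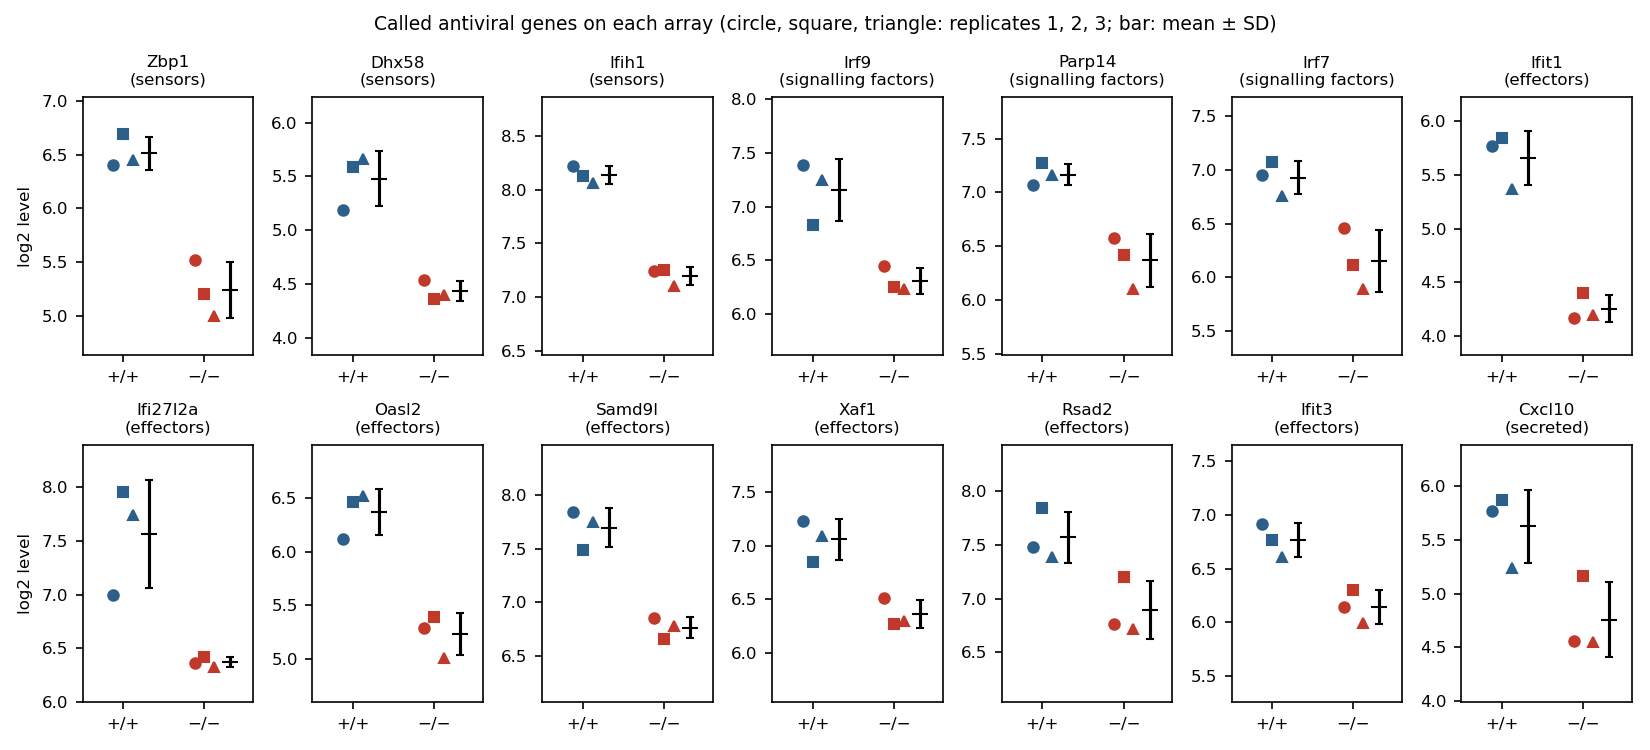
Log2 level of the 14 called genes on each array, Mir137+/+ in blue and Mir137−/− in red, with circles, squares and triangles for replicates 1, 2 and 3 and the mean ± SD beside them; every panel spans the same height in log2 units. In each panel all Mir137−/− livers lie below all Mir137+/+ livers, with the narrowest gap for Cxcl10 and Rsad2 and a low Mir137+/+ replicate 1 for Ifi27l2a.

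The reference livers were not alike in Xist, and the members were therefore also read against each kind. Against Mir137+/+ replicate 1 alone, the median difference of the 36 members was −0.52 and 32 were negative, while the median over all genes was −0.007. Against Mir137+/+ replicates 2 and 3 the members' median was −0.45 and 31 were negative, while the median over all genes was 0.007. Among the 14 called genes, differences against replicate 1 ran from −0.59 for Rsad2 to −1.51 for Ifit1. Against replicates 2 and 3 they ran from −0.55 for Ifit3 to −1.48 for Ifi27l2a. These genes were called on the same arrays, so lower values against both kinds were largely fixed by that selection. Ifi27l2a depended on the reference most, with −0.63 against replicate 1 and −1.48 against replicates 2 and 3. When sex entered the fit as a term taken from Xist, each difference became that against Mir137+/+ replicate 1, which is assumed to vary like the others. In that fit 7 of the 14 fell (Ifih1, Dhx58, Zbp1, Irf9, Ifit1, Samd9l and Xaf1), and 1.42% of all genes did. When Mir137+/+ replicates 2 and 3 were left out, 1 member fell (Ifit1), beside 0.401% of all genes.

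**Figure D3:**
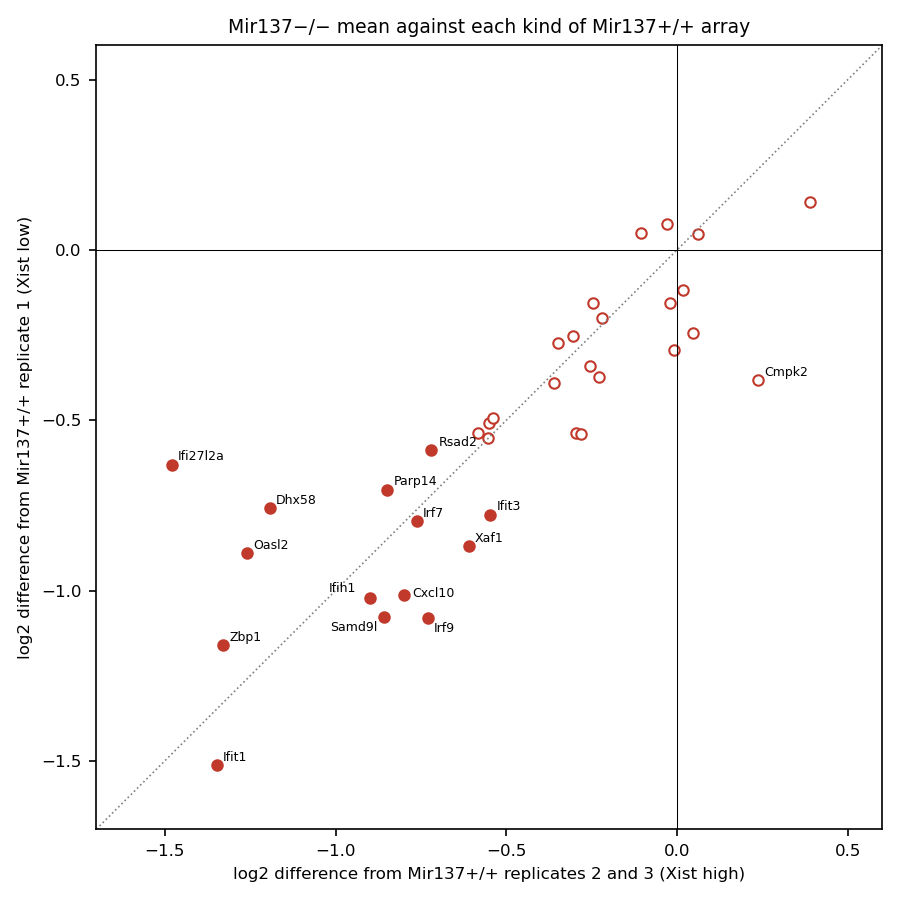
Each point is 1 of 36 antiviral genes, with the Mir137−/− mean minus Mir137+/+ replicates 2 and 3 (Xist high) on the horizontal axis and the Mir137−/− mean minus Mir137+/+ replicate 1 (Xist low) on the vertical axis, both in log2 units; filled points are called genes and the dotted line marks equal differences. All filled points lie below 0 on both axes, with Ifi27l2a far to the left of the line. The filled genes were called on these same arrays, so their side of 0 was largely fixed by that selection.

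The 2 arrays with pancreas markers were left out as well. The median difference of the members was then −0.52, and 9 fell, beside 2.14% of all genes. Cxcl10, Dhx58, Ifi27l2a, Ifit3, Irf7 and Parp14 were no longer called, with adjusted p from 0.0596 to 0.156, and Rtp4 was called at −0.60. Without the Mir137−/− array with muscle markers, 12 fell, beside 2.94% of all genes. The members' median was then −0.41, and the calls lost were Cxcl10 and Rsad2.

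The interferons themselves showed no call. Of 17 listed ligands, 10 were measured and none was called, while 5.67% of all genes were. The median difference of the ligands was 0.11. Their median log2 level was 3.27, below the lower quartile of all probe sets on the arrays (3.40 to 3.47). A change in such dim genes could have gone unseen. Ifnb1, the interferon-beta gene, had a difference of 0.11 (adjusted p = 0.544), and Ifng, the interferon-gamma gene, had −0.20 (adjusted p = 0.348). The brightest ligands were Ifna1 at 0.07 and Ifna2 at 0.03. No gene was called either among 10 receptors, kinases and STATs, whose median was 0.085, or among 8 feedback inhibitors, whose median was 0.09. The receptor chains Ifnar1 and Ifnar2 had differences of 0.15 and 0.13, and Stat3 had 0.03. The phosphatases Ptpn11 and Ptpn2 had 0.13 and −0.15.

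Of 20 measured genes of nucleic acid sensing upstream of interferon, 1 fell, which is 5% and near the 3.34% of all genes. The gene that fell was Mavs, the mitochondrial adaptor of the RNA helicases. It read 8.25, 8.28 and 8.26 in Mir137−/− livers and 8.87, 8.85 and 8.89 in Mir137+/+ livers. The livers of a genotype were nearly equal, and the difference was −0.61 ± 0.08 (adjusted p = 0.00276). After quantile normalization Mavs was at −0.57, under 1.5-fold, and its adjusted p was 0.0555 with sex as a term and 0.133 without the arrays with Xist. Irf3, the factor that switches on interferon-beta after sensing, had −0.39 (adjusted p = 0.0346). The helicase Dhx9 and the kinase Tbk1, the brightest of the list, had 0.06 and −0.07.

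Another 40 measured interferon-stimulated genes had a median difference of −0.19. Of these 7 fell, which is 17.5%, and 3 rose, while 3.34% of all genes fell and 2.34% rose. The genes that fell were Ly6e, a membrane protein that blocks viral fusion (−0.93, adjusted p = 0.00162), Apobec3, a cytidine deaminase acting on retroviruses (−0.75, adjusted p = 0.00333), and Ifitm3, which blocks viral entry through endosomes (−0.61, adjusted p = 0.00371), with Trim34a, Sp100, Ddx60 and Slfn8. Ifitm3 was at −0.56, under 1.5-fold, without Mir137−/− replicate 2, and the genes of the list that fell numbered 4 when that array was left out, as they did without either Mir137+/+ replicate 1 or 3. When sex entered as a term, 2 genes of the list fell, without the arrays with Xist none fell or rose, and without the pancreas arrays 5 fell. Apobec3 lost its call with sex as a term (adjusted p = 0.0743), and Ifitm3 lost it there (0.0702) and without the pancreas arrays (0.0534). Ifitm2, from the same family as Ifitm3, had 0.01. Tor3a, a torsin ATPase (1.08, adjusted p = 8.85e-04), Plscr1, a phospholipid scramblase (0.77, adjusted p = 0.00157), and Tdrd7, a Tudor domain protein (0.68, adjusted p = 0.00352), rose. For Tor3a, leaving out probe sets that can bind several transcripts gave 0.50, which was not called, and for Ly6e it gave −0.43. The mean of the probe sets of Plscr1 gave 0.52, under 1.5-fold. Among 10 genes that lean to interferon-gamma, 3 fell, which is 30%, beside 3.34% of all genes. All 3 are GTPases that act on intracellular pathogens, namely Igtp (−1.37, adjusted p = 0.0126), Gbp2 (−1.27, adjusted p = 0.00896) and Irgm1 (−0.93, adjusted p = 0.00202). Igtp lost its call without Mir137+/+ replicate 1 (adjusted p = 0.05002), with sex as a term (0.102) and without the pancreas arrays (0.104). Gbp2 lost it with sex as a term (0.0783) and without the pancreas arrays (0.0599), and without the arrays with Xist none of the list was called.

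Some marker lists of cells moved with the members. In whole liver, fewer cells of a type and less RNA per cell cannot be told apart. Of 11 neutrophil markers, 7 fell, which is 63.6%, beside 3.34% of all genes. The summed log2 level of the list was 9.83 to 10.5 in Mir137−/− livers and 11.5 to 11.9 in Mir137+/+ livers. Of 10 measured markers of B cells and their precursors, 7 fell, with 8.17 to 8.34 against 9.11 to 9.30. None of 12 Kupffer cell markers was called, and their summed level was 13.2 to 13.3 in Mir137−/− livers and 13.1 in all Mir137+/+ livers. Of 8 markers of plasmacytoid dendritic cells, a main source of type I interferon, 1 fell, Spib at −0.98, a gene that B cells also express, while Siglech, the defining receptor of the list, had a difference of 0.01. Of 9 markers of T and NK cells 1 fell, Gzma at −0.96. No marker of liver endothelium or hepatocytes was called. The hepatocyte sum was slightly lower in Mir137−/− livers, at 16.09 to 16.16 against 16.18 to 16.19 in Mir137+/+ livers. The endothelium sum was slightly higher, at 12.2 to 12.25 against 12.08 to 12.18. Some markers were dim, with means under the lower quartile of all probe sets (3.40 to 3.47). Ccr9 averaged 3.24 in Mir137−/− and 3.18 in Mir137+/+ livers, and Cd209d 3.36 and 3.08. In Mir137−/− livers, Rag1 averaged 2.77 and Vpreb1 2.96. The part of these cells in the members' differences was not tested.

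**Figure D4:**
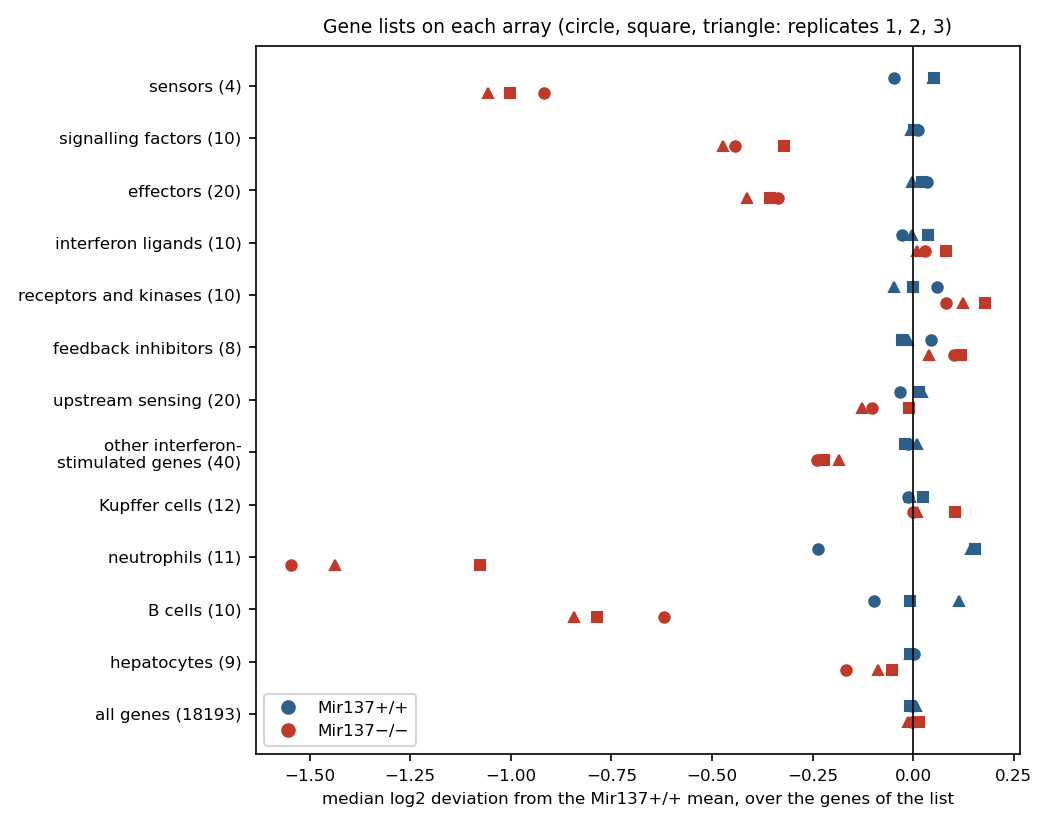
Median over the genes of a list of the log2 deviation from the Mir137+/+ mean, for each array, with Mir137+/+ in blue, Mir137−/− in red and circles, squares and triangles for replicates 1, 2 and 3; the number of measured genes is in brackets. The Mir137−/− livers lie left of the Mir137+/+ livers for sensors, signalling factors, effectors, other interferon-stimulated genes, neutrophils and B cells. They do so by a smaller margin for hepatocytes. They lie near 0 for ligands, Kupffer cells and all genes, and slightly right of the Mir137+/+ livers for receptors.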

How the data were processed

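Liver RNA of 3 Mir137−/− and 3 Mir137+/+ mice was hybridized to a whole-genome mouse GeneChip of Affymetrix, with 1 mouse per array and groups from the genotype labels. The authors deposited 1 log2 level per probe set and array, which was used as it stood. Per their methods, RMA and then a baseline-to-mean step were applied, but the submitters' processing notes name GCRMA without a version, which could change low values and small differences. Detection calls were not used here. Of 45101 probe sets, 64 were controls and 45037 were tested. The platform annotation gave 34945 of them 1 gene symbol, 932 several and 9160 none.

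For each of 18193 genes the brightest single-symbol probe set over the 6 arrays was fitted in R (version 4.3.3) with the package limma (version 3.58.1), on the 2 group means without covariates, and tested two-sided with eBayes. The thresholds, an adjusted p of 0.05 and a change of 1.5-fold, are those of the study's methods. Probe sets were also fitted one by one. The number of arrays limits the precision, since 3 against 3 cannot give an exact two-sided p below 0.1. A simulation gave 18193 genes independent normal noise and changed a few of them by 1 or 2 on the log2 scale. The fit recovered 84% of genes changed by 1 and 99% of those changed by 2. No simulated array stood apart, and the members' median difference was smaller, at −0.45, so these shares need not hold for the members. The summed level of a list is the log2 of the sum of its linear values.

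Members, roles, gene lists and tests were chosen with earlier results of these data known, and so support nothing independently. Array-level statistics were named for every called member, the pair of uncalled members with the smallest p in each role, and the core factors Stat2, Irf7, Irf9, Isg15, Usp18, Ifih1 and Ddx58. From the other pathway lists, up to 4 called genes, the pair of brightest genes, Ifnar1 and Ifnar2 were named, and further genes were chosen after their values were seen. Promoters came from RefSeq tables of GRCm38.p6, which were also used for gene neighbours. The settings tried were the methods' t-test (adjusted or not), unadjusted limma, calls by adjusted p alone, trend and robust eBayes, quantile normalization, median centring, leaving out the 40% dimmest probe sets or those ending in _s_at or _x_at, the mean of a gene's probe sets, a replicate block, sex as a term, leaving out arrays with Xist or pancreas markers, and leaving out each array.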

Additional observations from a re-analysis of the deposited data

How the results depend on the processing

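Over the 36 members and 20 alternatives, 636 single-gene values kept their direction and side of the threshold, 55 lost the call, 11 gained it and 16 changed sign. The sign changes were at uncalled genes that lay near 0 in the main fit. Cmpk2 moved furthest, from 0.03 to −0.42 with the mean of its probe sets, which disagreed. No member rose under any alternative. The count that fell stayed at 14 with the unadjusted tests, trend and robust eBayes, quantile normalization, median centring, the filter on dim probe sets and without _s_at and _x_at probe sets, and was 10 to 16 when 1 array was left out. It was 4 with the adjusted t-test (Ifih1, Ifit1, Samd9l and Zbp1), 7 with sex as a term, 1 without the arrays with Xist and 9 without the pancreas arrays. Without the fold threshold it was 19, the additions being Bst2, Ifi35, Oasl1, Rtp4 and Trim30a, and with the mean of all probe sets it was 12.

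By role, sensors fell to 0 calls without the arrays with Xist. Signalling factors had 0 with the adjusted t-test and without the arrays with Xist, 5 without the fold threshold, and 1 with sex as a term or without the pancreas arrays. Effectors had 2, 3 and 1 with the adjusted t-test, sex as a term and without the arrays with Xist. Secreted members had 0 in those settings and without the pancreas arrays, and 0 to 1 when 1 array was left out. The members' median difference was −0.53 without dim probe sets, −0.52 with sex as a term, without the arrays with Xist and without the pancreas arrays, and −0.50 to −0.41 when 1 array was left out.

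Upstream sensing genes that fell were 2 without the fold threshold and 0 after quantile normalization, with sex as a term and without the arrays with Xist. Other interferon-stimulated genes that fell were 4 with the adjusted t-test, the mean of probe sets or the replicate block, 2 with sex as a term, 0 without the arrays with Xist, and 4 to 6 when 1 array was left out, and 0 rose without the arrays with Xist. Interferon-gamma-leaning genes had 1, 1 and 0 under the adjusted t-test, sex as a term and without the arrays with Xist, and 2 without the pancreas arrays, where Gbp2 and Igtp were not called. In the whole table, 284 fell and 182 rose with the adjusted t-test, 1256 and 921 without the fold threshold, 259 and 184 with sex as a term, 73 and 54 without the arrays with Xist, and 390 and 228 without the pancreas arrays. The causes of these changes were not tested, although the last settings use fewer arrays.

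Sign changes at uncalled genes were Trim25 −0.0067 and Ifitm2 −0.0067 after median centring. With the mean of all probe sets they were Eif2ak2 −0.082, Cmpk2 −0.42, Ifnar2 −0.017, Stat3 −0.077 and Ptpn2 0.10. With sex as a term, and equally without the arrays with Xist, they were Mx1 0.05, Cmpk2 −0.38, Ifna2 −0.04 and Stat3 −0.063. Without the pancreas arrays they were Eif2ak2 −0.01, Stat3 −0.21 and Ifitm2 −0.0150. When 1 array was left out, Stat2 ranged from −0.052 to 0.018, Trim25 from −0.028 to 0.032, Eif2ak2 from −0.035 to 0.155, Cmpk2 from −0.20 to 0.25, Isg20 from −0.18 to 0.047, Ifna1 from −0.01 to 0.19, Ifna2 from −0.16 to 0.21, Stat3 from −0.21 to 0.19, Dhx9 from −0.028 to 0.14 and Ifitm2 from −0.0067 to 0.028.

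Replicate numbers were shared across genotypes, and the deviations of same-numbered arrays correlated at 0.102, 0.235 and 0.025. For Mir137−/− replicates 1 and 2 the array of the same number was the best match. Mir137−/− replicate 3 correlated best with Mir137+/+ replicate 1, at 0.062. These values do not settle whether the arrays were paired, and the main fit took them to share only a number. With the replicate number as a block, the same 14 members fell, with 3 sensors, 3 signalling factors, 7 effectors and 1 secreted gene, their median difference was −0.45, and 588 genes fell and 411 rose in the whole table. Probe sets near the lower quartile of 3.40 to 3.47 limit what can be read for dim genes such as Mx1 and the ligands.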
